A study of Mus musculus with 17 samples.

Results

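The Cyp2 family of cytochromes P450 was followed in RNA from mouse kidney. Its members were taken as all protein-coding genes of the deposited table whose symbol is Cyp2 followed by a subfamily letter and a number, which gave 44 of 42794 genes in 13 subfamilies. The 17 libraries fall into 3 groups: 7 labelled Gcgr shRNA, a hairpin RNA aimed at the glucagon receptor gene of proximal tubule cells, 6 labelled Ctr shRNA by their genotype and Vehicle by their titles, and 4 of wild-type genotype, here called control. Titles of both shRNA groups carry DKD, and the series is about diabetic kidney disease. Strain, age and sex of the mice, the way the disease was brought about and the delivery of the hairpins were not given in the sources used, nor do the labels tie each library to an animal of its own. The p-values below therefore measure the spread between these samples, which may be technical in part.

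Cytochromes P450 of this family are haem enzymes of the endoplasmic reticulum that insert an oxygen atom into drugs, solvents, steroids and fatty acids, with electrons passed on by the reductase Por. In the kidney they are known mainly from the proximal tubule, where Cyp2e1 oxidises ethanol, acetone and other small molecules and enzymes of the Cyp2c and Cyp2j subfamilies turn arachidonic acid into epoxides, which epoxide hydrolases then open. Several mouse members, among them Cyp2d9 in liver, are known to differ between the sexes.

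The libraries held 13997657 to 17107876 recovered reads each, and 12183 to 12919 genes reached 1 FPKM (reads scaled to gene length in kilobases and to library depth). Gcgr, the target of the hairpin, was at 13.02 ± 1.70 FPKM in the 7 libraries labelled Gcgr shRNA (mean ± SD), 9.74 ± 2.14 FPKM in Ctr shRNA and 20.8 ± 2.42 FPKM in control, so its order between the shRNA groups goes against their labels in RNA of the whole kidney (log2 difference 0.40 ± 0.12 SE, limma adjusted p = 0.413). The library Ctr shRNA 20 stood apart. Its 5 fat cell markers summed to 112 FPKM, against at most 6.68 in any other library, its 5 urothelial markers to 170.3 FPKM, against at most 9.97, and its 17 proximal tubule markers to 8227 FPKM, the lowest sum of all libraries. All 17 proximal tubule markers reached the filter used for testing. Of the markers of the liver, where most Cyp2 genes are best known, Cps1 was at 0 in every library and Ahsg reached at most 0.0899 FPKM. Other liver markers were detected, with Apoh at 3.84 to 17.7 FPKM and Alb at 2.25 to 4.76 FPKM over all libraries. Serpina1c reached 1.97 and Apoa1 1.99 FPKM, and 5 of the 7 liver markers reached the filter used for testing. Of 5 adrenal cortex markers in the table, 4 stayed below 1 FPKM in every library. The 7 liver markers, which include Ttr, a carrier of thyroid hormone and retinol that these kidneys expressed, summed to 181 to 325 FPKM in the libraries labelled Gcgr shRNA, 83.7 to 211 in Ctr shRNA and 81.1 to 91.5 in control. Most of each sum was Ttr, at 163 to 305 FPKM in the libraries labelled Gcgr shRNA, 75.5 to 198 in Ctr shRNA and 63.8 to 73.7 in control.

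Of the 44 members, 18 were expressed, that is, had a mean of at least 1 FPKM over all 17 libraries, and the same 18 also passed the filter for testing, at least 1 FPKM in at least 4 libraries. Cyp2b10 passed it only with the help of the group where it was highest, at 1 FPKM or more in 6 libraries labelled Gcgr shRNA, 1 of Ctr shRNA and 2 of control. The expressed members were spread over 9 subfamilies: 6 Cyp2j genes in a cluster on chromosome 4, 4 Cyp2d genes on chromosome 15, 2 Cyp2a genes, Cyp2b10, Cyp2e1, Cyp2f2 and Cyp2s1 on chromosome 7, Cyp2c23 on chromosome 19 and Cyp2u1 on chromosome 3. Just inside the threshold were Cyp2b10 at a mean of 1.03 FPKM and Cyp2j7 at 1.17 FPKM, and just outside was Cyp2b9 at 0.658 FPKM.

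A few members held most of the family's RNA. On FPKM, which is per gene length, Cyp2e1 had the highest mean over all libraries at 649.7, followed by Cyp2j5 at 546 and Cyp2a4 at 367. These 3 genes held 75.9% to 81.4% of the family's summed FPKM in every library. Next came Cyp2d9 at 99.4, Cyp2j11 at 81.4, Cyp2a5 at 67.1, Cyp2j13 at 65.1 and Cyp2d26 at 47.9 FPKM. A lower tier held Cyp2d12 at 15.9, Cyp2j6 at 12.6, Cyp2c23 at 10.4, Cyp2d22 at 7.59, Cyp2s1 at 4.86, Cyp2j9 at 4.27, Cyp2f2 at 2.10 and Cyp2u1 at 1.42 FPKM. Within the control group, Cyp2e1 (906 to 1041 FPKM) lay above Cyp2j5 (558 to 635 FPKM) without overlap, and Cyp2j5 above Cyp2a4 (361 to 494 FPKM), while Cyp2a5 overlapped Cyp2j11 and Cyp2j13, and Cyp2d26 overlapped Cyp2d12.

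The 26 members below the threshold were low or at 0. Cyp2w1, Cyp2g1 and Cyp2a22 were at 0 in every library, and 16 of the 26 had fewer than 10 reads over all libraries. Cyp2b9 was the one that reached 1 FPKM anywhere, at 1.32 in the library labelled Gcgr shRNA 13. The highest single library was at 0.873 FPKM for Cyp2j8, 0.797 for Cyp2c69, 0.647 for Cyp2r1, which hydroxylates vitamin D in the liver, 0.60 for Cyp2t4, 0.419 for Cyp2b23, 0.386 for Cyp2d11, 0.280 for Cyp2d10, 0.145 for Cyp2c38, 0.127 for Cyp2c65, 0.114 for Cyp2d40 and 0.109 for Cyp2j12. The remaining 11, which are Cyp2c68, Cyp2c29, Cyp2c55, Cyp2c66, Cyp2c67, Cyp2c37, Cyp2c40, Cyp2b19, Cyp2b13, Cyp2d34 and Cyp2a12, had a highest library of 0.0185 to 0.0764 FPKM. Of 11 Cyp2c genes, a subfamily that is abundant in mouse liver, Cyp2c23 alone was expressed here.

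Several members have close relatives in sequence, which bears on how their reads can be told apart. Compared as the longest annotated coding transcripts, Cyp2a4 and Cyp2a5 were 98.3% identical over 1738 aligned bases, Cyp2d9 and Cyp2d12 91.4% over 1651 and Cyp2j11 and Cyp2j7 87.1% over 1515. Of all stretches of 50 bases, 38.01% in Cyp2a4 and 40.8% in Cyp2a5 occurred without a mismatch in another annotated gene, as did 29.04% in Cyp2d9, 17.9% in Cyp2d12, 10.5% in Cyp2d26, 9.69% in Cyp2b10 and 6.14% in Cyp2d22. In the other expressed members the share was at most 4.76%. The sources used here do not say how reads that match several genes were counted, so the split between Cyp2a4 and Cyp2a5 and among the Cyp2d genes is uncertain.

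The coding sequences of Cyp2d12 and Cyp2d9 are shown because these neighbours on chromosome 15 carried the strongest differences between groups. They have 1512 coding bases each and were the same at 1393 of them. Shown are coding bases 334 to 423, counted from the A of the start codon in the GENCODE M21 transcripts, the 90 bases over which they differ most, with the 16 bases that differ in capitals.
Cyp2d12: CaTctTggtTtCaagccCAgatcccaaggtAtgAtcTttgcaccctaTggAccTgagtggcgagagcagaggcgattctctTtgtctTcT
Cyp2d9: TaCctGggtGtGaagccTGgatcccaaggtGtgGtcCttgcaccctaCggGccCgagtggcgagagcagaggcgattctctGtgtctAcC

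For the Cyp2a pair the likeness reaches into the promoter. The windows below run from 250 bases before to 50 bases after the RefSeq start (GRCm38.p6, plus strand), chr7:26306942-26307241 for Cyp2a4 and chr7:26835089-26835388 for Cyp2a5. They are shown because Cyp2a5 ranged over libraries from 15.6 to 137 FPKM and Cyp2a4 from 145 to 523 FPKM, though 294 of 299 aligned bases are the same. Capitals mark the 5 bases that differ.
Cyp2a4: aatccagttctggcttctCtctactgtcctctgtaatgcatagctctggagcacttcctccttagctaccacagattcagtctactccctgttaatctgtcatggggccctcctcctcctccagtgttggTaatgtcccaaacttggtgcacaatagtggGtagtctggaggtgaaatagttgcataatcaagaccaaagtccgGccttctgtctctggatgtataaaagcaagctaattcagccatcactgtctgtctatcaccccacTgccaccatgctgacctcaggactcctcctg
Cyp2a5: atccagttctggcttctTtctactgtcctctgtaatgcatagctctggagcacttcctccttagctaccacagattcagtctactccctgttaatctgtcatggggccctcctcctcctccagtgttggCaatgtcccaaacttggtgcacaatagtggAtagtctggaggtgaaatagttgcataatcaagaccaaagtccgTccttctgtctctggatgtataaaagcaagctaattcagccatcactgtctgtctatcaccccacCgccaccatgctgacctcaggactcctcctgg

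A RefSeq promoter could be matched by symbol, chromosome and strand for 13 of the 18 expressed members, the exceptions being Cyp2d12, Cyp2d22, Cyp2c23, Cyp2u1 and Cyp2j7. Both strands were searched for TATAAA, the core of the TATA box, CAAAGTCCA, a site of HNF4A, TTATGTAA, the D-box bound by the clock-controlled factor Dbp, and AGAACA, the arm of sites for androgen and glucocorticoid receptors. TATAAA was found in 6 of the 13 windows and in 13.62% of 32817 promoters of the same length, and AGAACA in 4 and 18.97%. The TATAAA match of Cyp2j5 began at -128 from the RefSeq start, further upstream than the others. Those of Cyp2a4 and Cyp2a5 lie in windows that are 98.3% identical and so are not separate observations. Neither CAAAGTCCA nor TTATGTAA was found in the 13, where 0.48% and 0.94% of all promoters held them. At such shares a match among 13 windows would be rare, and sites that differ by a base were not searched for. Their absence therefore does not show that these promoters lack such sites. No match overlapped another. The windows of Cyp2e1 (chr7:140763569-140763868, plus strand) and Cyp2d9 (chr15:82452127-82452426, plus strand) are given because both genes were lower in Ctr shRNA than in control, with TATAAA or its reverse complement in capitals. Those letters start 31 and 28 bases before the RefSeq start. The Cyp2d9 window lies 18940 bases inside the gene as the deposited table bounds it, which begins further upstream.
Cyp2e1: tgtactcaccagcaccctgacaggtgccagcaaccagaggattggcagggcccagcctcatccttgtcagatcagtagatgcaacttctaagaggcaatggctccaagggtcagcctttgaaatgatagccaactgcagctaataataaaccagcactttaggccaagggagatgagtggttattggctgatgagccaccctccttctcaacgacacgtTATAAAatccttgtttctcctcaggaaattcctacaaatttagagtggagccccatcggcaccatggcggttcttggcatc
Cyp2d9: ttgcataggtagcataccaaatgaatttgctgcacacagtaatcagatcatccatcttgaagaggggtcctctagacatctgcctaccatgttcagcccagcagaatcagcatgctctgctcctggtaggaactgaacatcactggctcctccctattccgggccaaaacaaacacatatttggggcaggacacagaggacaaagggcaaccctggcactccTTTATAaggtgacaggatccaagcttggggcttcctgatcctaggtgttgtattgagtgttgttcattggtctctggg

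The 6 Ctr shRNA libraries were first set against the 4 control libraries. They differ from control in the disease label and in the label of a control hairpin, which cannot be told apart here. Cyp2d12 fell most, and Cyp2d9, Cyp2e1 and Cyp2j11 fell with it, while Cyp2d22 rose. Thus 4 members were lower and 1 higher of 18 tested by limma on log2(FPKM + 1) with Benjamini-Hochberg adjustment over all 13279 tested genes at 0.05. Of all tested genes 3.91% were lower and 3.58% higher by the same rule, 7.49% in either direction. Differences below are on this log2 scale, which understates changes of genes near 1 FPKM, and are given with their SE. In RNA of whole tissue, fewer cells of a type and less RNA per cell cannot be told apart.

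**Figure D1:**
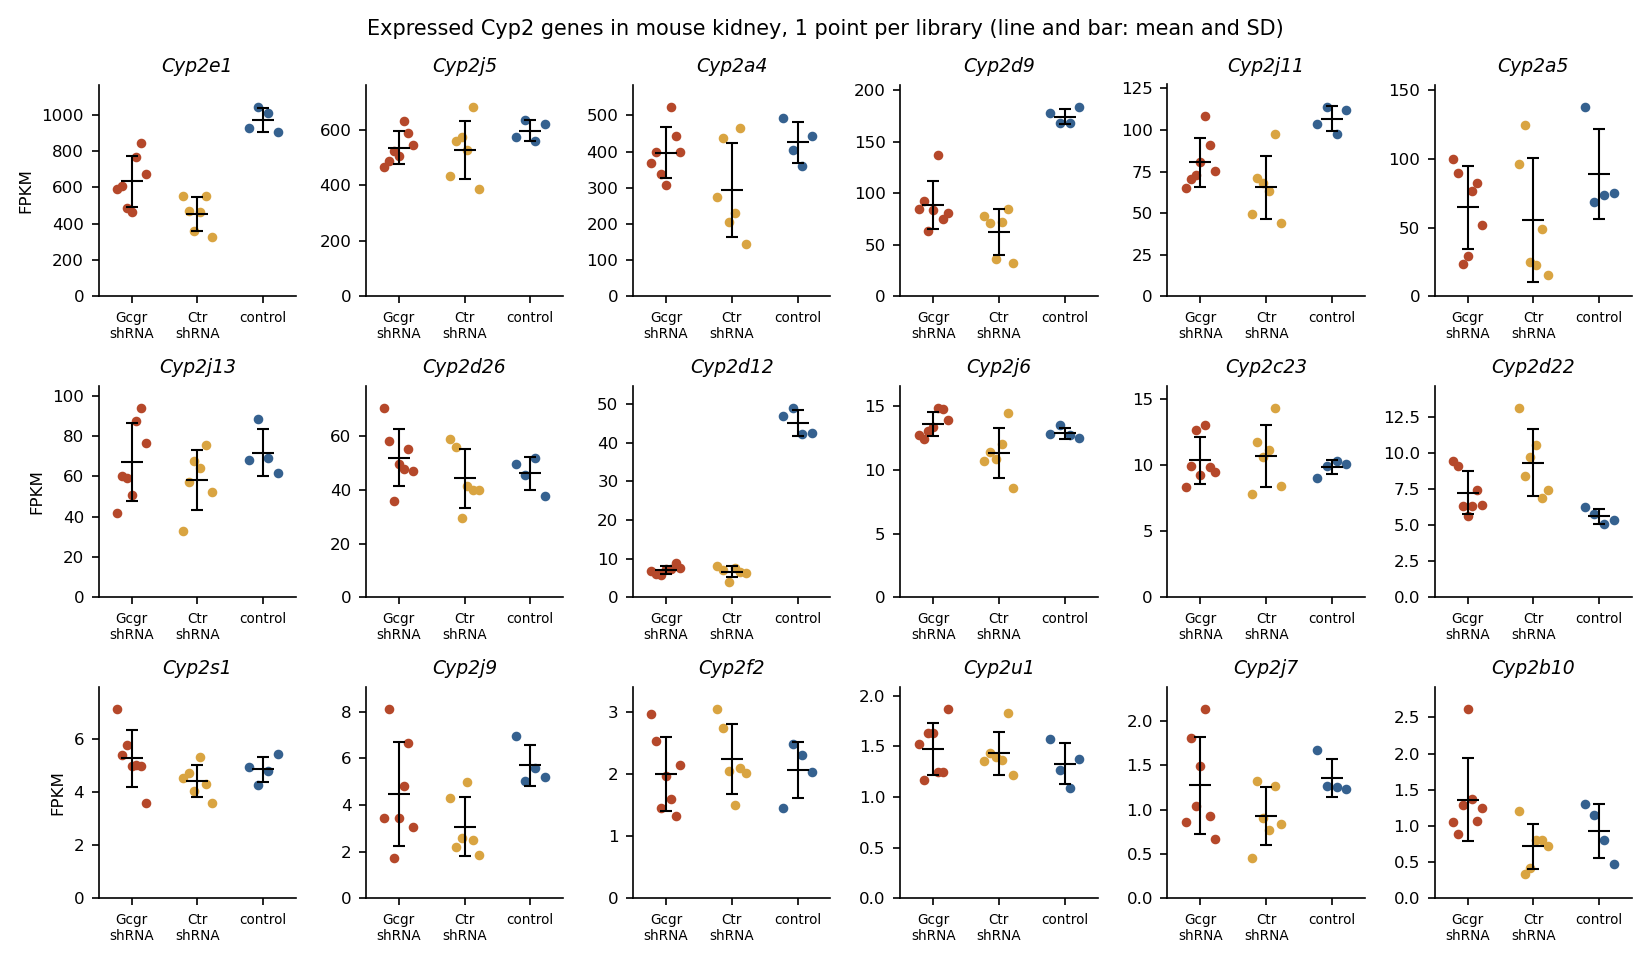
FPKM of each of the 18 expressed members (vertical axis from 0, own scale per gene) in the libraries labelled Gcgr shRNA (n = 7), in Ctr shRNA (n = 6) and in control (n = 4), 1 point per library, with the mean and SD. All shRNA libraries of Cyp2d12 lie at or below 8.78 FPKM and all control libraries at or above 42.1 FPKM.

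The Cyp2d genes lie within 1 stretch of chromosome 15 and went different ways. Cyp2d12 (chromosome 15, 82555072 to 82560403, plus strand, GRCm38) was at 7.999, 7.02, 4.01, 7.56, 6.63 and 6.29 FPKM in Ctr shRNA libraries 1, 4, 6, 8, 19 and 20, and at 46.9, 48.9, 42.1 and 42.4 FPKM in control libraries 37, 38, 39 and 41. Every Ctr shRNA library was far below every control library, and the difference was -2.62 ± 0.13 (adjusted p = 3.88e-09, limma). These levels rest on 2558 reads in Ctr shRNA and 10668 in control. In all 26 alternative settings it passed, at adjusted p from 1.54e-10 to 9.03e-06.

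Cyp2d9 (chromosome 15, 82433437 to 82456845, plus strand), which hydroxylates testosterone, ranged from 32.8 to 85.0 FPKM in Ctr shRNA with a median of 71.9, and was at 178, 168, 168 and 184 FPKM in control 37, 38, 39 and 41. The groups did not overlap, at -1.56 ± 0.25 (adjusted p = 0.00125). Among Ctr shRNA libraries, 6 and 20 were low, at 35.8 and 32.8 FPKM, with the others at 71.6 or above. Cyp2d22 (chromosome 15, 82370527 to 82380260, minus strand), seen as the counterpart of the human CYP2D drug-metabolising enzyme, went the opposite way. Its Ctr shRNA libraries ranged from 6.86 to 13.1 FPKM with a median of 9.03, above the control libraries at 6.24, 5.78, 5.07 and 5.33 FPKM, a difference of 0.62 ± 0.15 (adjusted p = 0.0209). That call was lost without control 38 (adjusted p = 0.0527), without control 39 (0.0760), without a filter on low genes (0.0551) and with every library scaled to the same FPKM total (0.0510), and adjusted p over the alternatives ran from 0.00170 to 0.0760. Cyp2d26 (chromosome 15, 82790101 to 82794294, minus strand) was at 44.3 ± 11.03 FPKM in Ctr shRNA and 46.1 ± 6.25 in control (-0.08 ± 0.18, adjusted p = 0.830). Summed over 8 genes, Cyp2d was at 123 ± 32.1 FPKM in Ctr shRNA and 271 ± 6.58 in control.

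Cyp2e1 (chromosome 7, 140763739 to 140774987, plus strand) ranged from 328 to 552 FPKM in Ctr shRNA with a median of 468, while control 37, 38, 39 and 41 were at 928, 1041, 1011 and 906 FPKM. The highest Ctr shRNA library was well below the lowest control library, and the difference was -1.12 ± 0.17 (adjusted p = 0.00110), or -1.03 without Ctr shRNA 20 (adjusted p = 0.00174). The sum over the whole family was 1613 ± 358 FPKM in Ctr shRNA, with 1086 in Ctr shRNA 20, and 2574 ± 85.4 in control.

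Among the Cyp2j genes, whose studied members epoxidise or hydroxylate arachidonic acid, Cyp2j11 (chromosome 4, 96294508 to 96348662, minus strand) was the one that fell. Its Ctr shRNA libraries ranged from 43.8 to 97.5 FPKM with a median of 65.8, the highest of them just under the control libraries at 103, 114, 97.7 and 112 FPKM. The difference was -0.74 ± 0.18 (adjusted p = 0.0176), and without control 38 it missed the threshold at adjusted p = 0.0622, the highest of the alternatives, of which the lowest was 0.00183. Cyp2j9 also did not overlap between the groups, at 1.86 to 4.99 FPKM in Ctr shRNA (median 2.55) and 6.98, 5.02, 5.60 and 5.22 in control, and gave -0.76 ± 0.28 (adjusted p = 0.1003), which passed when only the compared groups were fitted (adjusted p = 0.0499). Cyp2j5 (chromosome 4, 96628773 to 96664154, minus strand), the abundant epoxygenase of mouse kidney, was at 527 ± 105 FPKM in Ctr shRNA and 596.5 ± 36.3 in control (-0.20 ± 0.13, adjusted p = 0.386). Cyp2j13, Cyp2j6 and Cyp2j7 gave -0.33 ± 0.23, -0.19 ± 0.10 and -0.31 ± 0.17, none passing, with adjusted p from 0.259 to 0.414. Cyp2j summed to 666 ± 138 FPKM in Ctr shRNA and 796 ± 49.6 in control.

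Of the Cyp2a genes, Cyp2a5 varied widely among libraries of 1 group. Cyp2a5 (chromosome 7, 26835305 to 26843548, plus strand), which oxidises coumarin and nicotine, was at 96.1, 125, 24.9, 22.5, 48.7 and 15.6 FPKM in Ctr shRNA 1, 4, 6, 8, 19 and 20, and at 137, 68.4, 73.6 and 75.1 in control 37, 38, 39 and 41. Libraries of a single group thus differed more than the group means did, and the difference of -1.01 ± 0.53 did not pass (adjusted p = 0.266; 95% interval -2.13 to 0.11). Its close relative in sequence Cyp2a4 (chromosome 7, 26307169 to 26315088, plus strand), which hydroxylates testosterone, was at 145 to 465 FPKM in Ctr shRNA with a median of 252, and at 494, 405, 361 and 442 in control. For Cyp2a4 the difference was -0.65 ± 0.26 (adjusted p = 0.132), which passed with sample weights (adjusted p = 0.0199) and without Ctr shRNA 19 (0.0396). The level of Cyp2a5 divided by that of Cyp2a4 was 0.0980 to 0.349 in Ctr shRNA and 0.169 to 0.278 in control.

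Of the other members, Cyp2c23, an epoxygenase of the kidney, was at 10.7 ± 2.36 FPKM in Ctr shRNA and 9.85 ± 0.552 in control (0.08 ± 0.14, adjusted p = 0.767). Cyp2s1, an enzyme of epithelia, Cyp2f2, best known for oxidising naphthalene in the airways, Cyp2u1, a fatty acid hydroxylase, and Cyp2b10, a classical target of the drug sensor Nr1i3, gave -0.11 ± 0.12, 0.07 ± 0.16, 0.06 ± 0.10 and -0.17 ± 0.18, with adjusted p from 0.615 to 0.825. For 8 of the 18 members the 95% interval lay within a 1.5-fold change of FPKM + 1 in either direction. For members near 1 FPKM this allows larger changes in FPKM itself. In all, 14 of 18 members were below 0 with a median of -0.25, where 51.5% of all tested genes were above 0 with a median of 0.01. Without Ctr shRNA 20 the family's median was -0.24. Groups did not overlap in 5 members that were lower in Ctr shRNA and 1 that was higher, against 5.41% and 4.71% of all tested genes, or 10.1% in either direction.

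**Figure D2:**
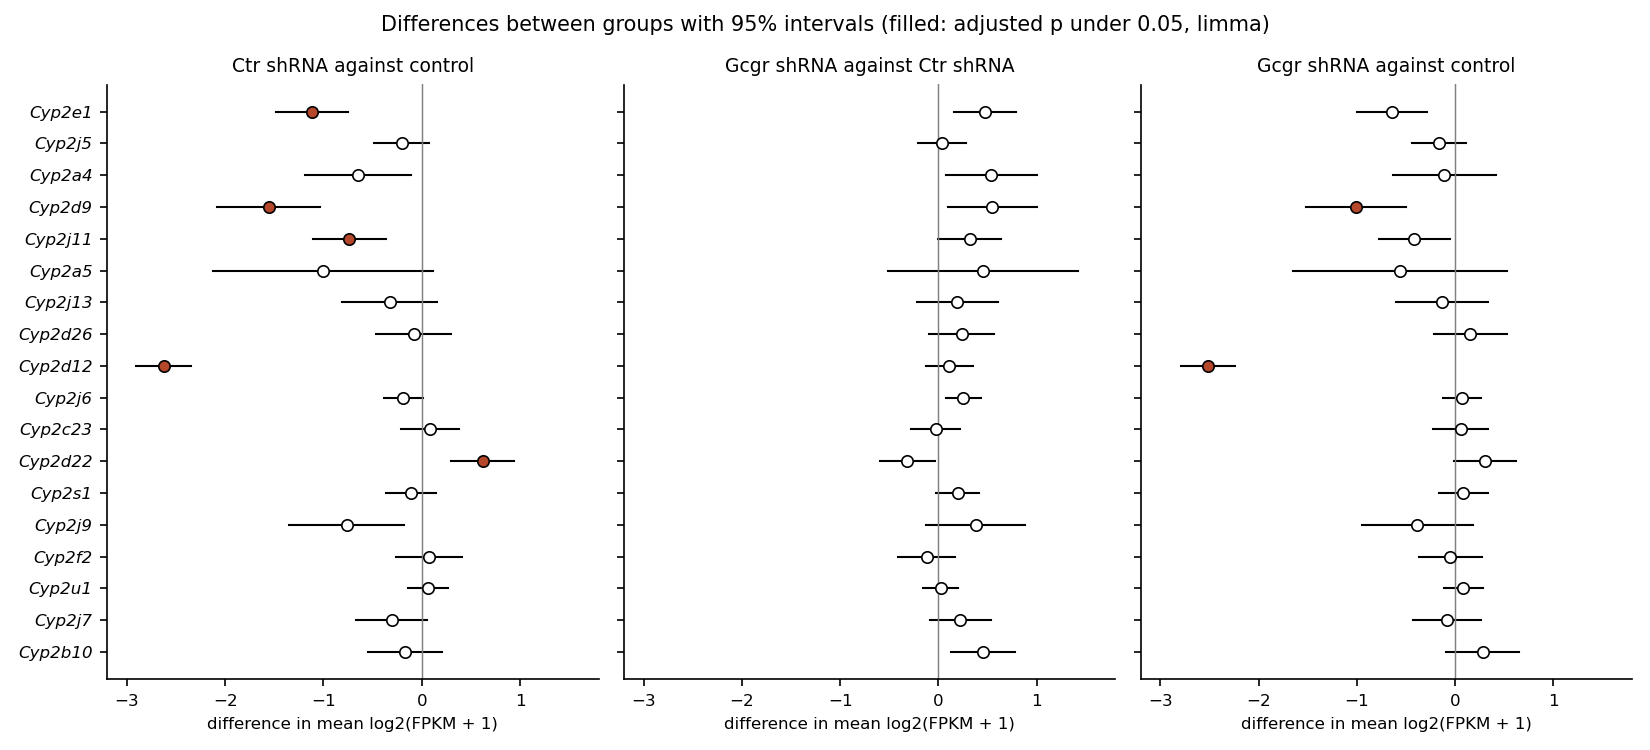
Difference in mean log2(FPKM + 1) of each expressed member (rows, from highest to lowest mean) in the 3 comparisons, with 95% intervals. Filled points passed limma's test over all 13279 genes: 5 in Ctr shRNA against control, 0 in Gcgr shRNA against Ctr shRNA and 2 in Gcgr shRNA against control.

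Within the disease label, the 7 libraries labelled Gcgr shRNA were then compared with the 6 of Ctr shRNA, which asks what goes with the label of a hairpin against Gcgr. Since Gcgr itself was not lower under that label, the direction of every difference here is one between labels. No member passed limma's test, nor did any of the 13279 genes (0.0% called), while 972 genes and 6 members had an unadjusted p under 0.05. Limma voom on the recovered reads also called 0 genes, while the fit without Ctr shRNA 20 called 2 of 13183 genes, none of them a member. Of the 18 members 15 were above 0, with a median of 0.23, where 48.5% of all tested genes were above 0. Leaving out Cyp2b10, which owed its place among the tested genes to the libraries labelled Gcgr shRNA, 14 of 17 were above 0 with a median of 0.22 and 5 had an unadjusted p under 0.05. Without Ctr shRNA 20, which had the lowest family sum, 13 of 18 were above 0 with a median of 0.18. Groups overlapped in every member, where 0.203% of all tested genes did not overlap. The family summed to 1974 ± 313 FPKM in the libraries labelled Gcgr shRNA and 1613 ± 358 in Ctr shRNA.

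Cyp2e1 was at 463 to 844 FPKM with a median of 608 in the libraries labelled Gcgr shRNA, and at 328 to 552 with a median of 468 in Ctr shRNA. Though 5 of 7 libraries labelled Gcgr shRNA lay above all of Ctr shRNA, the difference of 0.47 ± 0.15 had an adjusted p of 0.442. The other members with an unadjusted p under 0.05 were Cyp2j6 (0.26 ± 0.08, adjusted p = 0.469), Cyp2d9 (0.55 ± 0.21, adjusted p = 0.567), Cyp2a4 (0.54 ± 0.22, adjusted p = 0.603) and Cyp2d22 (-0.32 ± 0.13, adjusted p = 0.604), and Cyp2b10 (0.45 ± 0.16, adjusted p = 0.491), which passed the filter only through the group where it was higher. Without Ctr shRNA 20 these values were 0.38 for Cyp2e1, 0.18 for Cyp2j6, 0.46 for Cyp2b10, 0.38 for Cyp2d9, 0.36 for Cyp2a4 and -0.37 for Cyp2d22. None of the 18 passed in any of the alternatives.

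Cyp2d12, so much lower in Ctr shRNA than in control, was about as low in the libraries labelled Gcgr shRNA, at 6.84, 6.11, 5.89, 7.38, 7.25, 8.78 and 7.51 FPKM in libraries 13, 15, 29, 31, 32, 34 and 35, against the Ctr shRNA values given above. Here the difference was 0.11 ± 0.11 (95% interval -0.13 to 0.35, adjusted p = 0.872). Cyp2j5 stood at 535 ± 58.5 FPKM in the libraries labelled Gcgr shRNA and 527 ± 105 in Ctr shRNA (0.04 ± 0.11), and its sign turned without Ctr shRNA 20, at -0.05. Cyp2a5 was also spread widely under the Gcgr shRNA label: libraries 29 and 31 had 23.7 and 29.1 FPKM and the other 5 had 52.1 to 99.6 FPKM (0.45 ± 0.46, adjusted p = 0.872). For 9 members the 95% interval lay within a 1.5-fold change of FPKM + 1 either way.

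The last comparison was of the libraries labelled Gcgr shRNA with control, and it shares its control libraries with the first and its shRNA libraries with the second. Here 2 of 18 members fell, Cyp2d12 and Cyp2d9, and 0 rose, where 0.595% of all tested genes were lower, 1.42% higher and 2.02% called in either direction. Cyp2d12 was at 5.89 to 8.78 FPKM with a median of 7.25 in the libraries labelled Gcgr shRNA and at 42.1 to 48.9 in control, a difference of -2.51 ± 0.13 (adjusted p = 4.90e-09), and it passed in all 26 alternatives. Cyp2d9 was at 85.0, 92.2, 63.8, 83.9, 137, 75.0 and 80.4 FPKM in libraries 13, 15, 29, 31, 32, 34 and 35, all below the control libraries at 168 to 184 FPKM. Its difference of -1.01 ± 0.24 passed at adjusted p = 0.0362, but the call was lost in 11 of the 26 alternatives, which were the fit without a filter (adjusted p = 0.0977) and those without 1 of libraries 13, 15, 29, 31, 34 and 35 labelled Gcgr shRNA or without 1 of the 4 control libraries, with adjusted p over all alternatives from 0.00366 to 0.115.

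Cyp2e1 lay below control in all 7 libraries labelled Gcgr shRNA, at 463 to 844 FPKM against 906 to 1041 FPKM, yet its difference of -0.65 ± 0.17 missed the threshold (adjusted p = 0.0608). It passed in 7 of 26 alternatives, among them limma voom (adjusted p = 0.0205) and the fits without Gcgr shRNA 32 (0.0458), Gcgr shRNA 34 (0.0312) or Ctr shRNA 20 (0.0365), over a range of 0.0108 to 0.195. Together with Cyp2d12 and Cyp2d9 it gave 3 members whose groups did not overlap, all lower, against 2.23% of all tested genes that were lower without overlap, 3.31% that were higher and 5.54% in either direction. Cyp2j11 was at 64.9 to 109 FPKM (median 75.2) in the libraries labelled Gcgr shRNA and 97.7 to 114 in control, at -0.42 ± 0.17 (adjusted p = 0.239). Cyp2d22 was at 7.23 ± 1.49 FPKM in the libraries labelled Gcgr shRNA and 5.61 ± 0.515 in control, at 0.30 ± 0.15 (adjusted p = 0.325). Cyp2a5 had 64.7 ± 30.003 FPKM in the libraries labelled Gcgr shRNA and 88.6 ± 32.6 in control, at -0.56 ± 0.52 (adjusted p = 0.640). Over the 18 members 7 were above 0 and 11 below, with a median of -0.10. Of all tested genes 48.8% were above 0, with a median of -0.0049. For 8 members the 95% interval lay within a 1.5-fold change of FPKM + 1 either way.

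**Figure D3:**
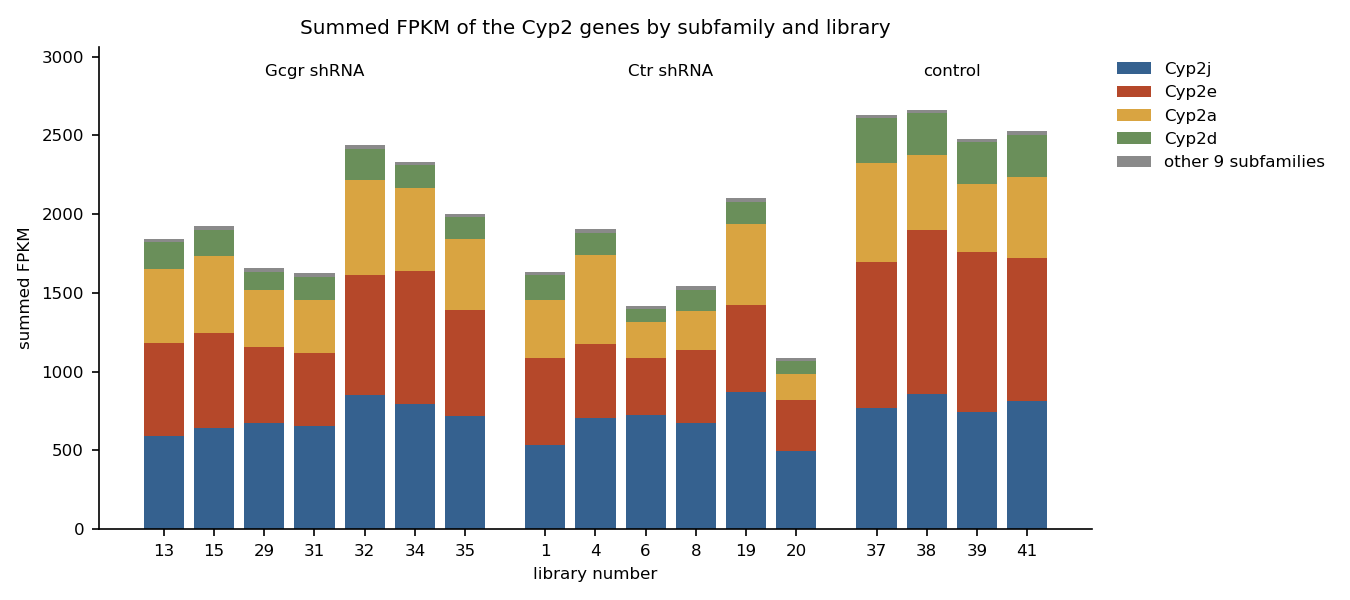
Summed FPKM of the 44 members by subfamily in each library, stacked, with libraries grouped as labelled Gcgr shRNA, Ctr shRNA and control. Control libraries sum to 2479 to 2661 FPKM and Ctr shRNA 20 has the lowest sum at 1086 FPKM.

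For both pairs of similar genes the ratio of their FPKM values, which are per gene length, differed among libraries. Cyp2a5 over Cyp2a4 was 0.0699 to 0.270 in the libraries labelled Gcgr shRNA, 0.0980 to 0.349 in Ctr shRNA and 0.169 to 0.278 in control, so the groups overlapped. Cyp2d12 over Cyp2d9 was 0.0529 to 0.117 in the libraries labelled Gcgr shRNA, 0.0780 to 0.192 in Ctr shRNA and 0.231 to 0.291 in control, and both shRNA groups lay below control throughout. Cyp2d12 was therefore lower relative to Cyp2d9 as well as on its own scale.

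**Figure D4:**
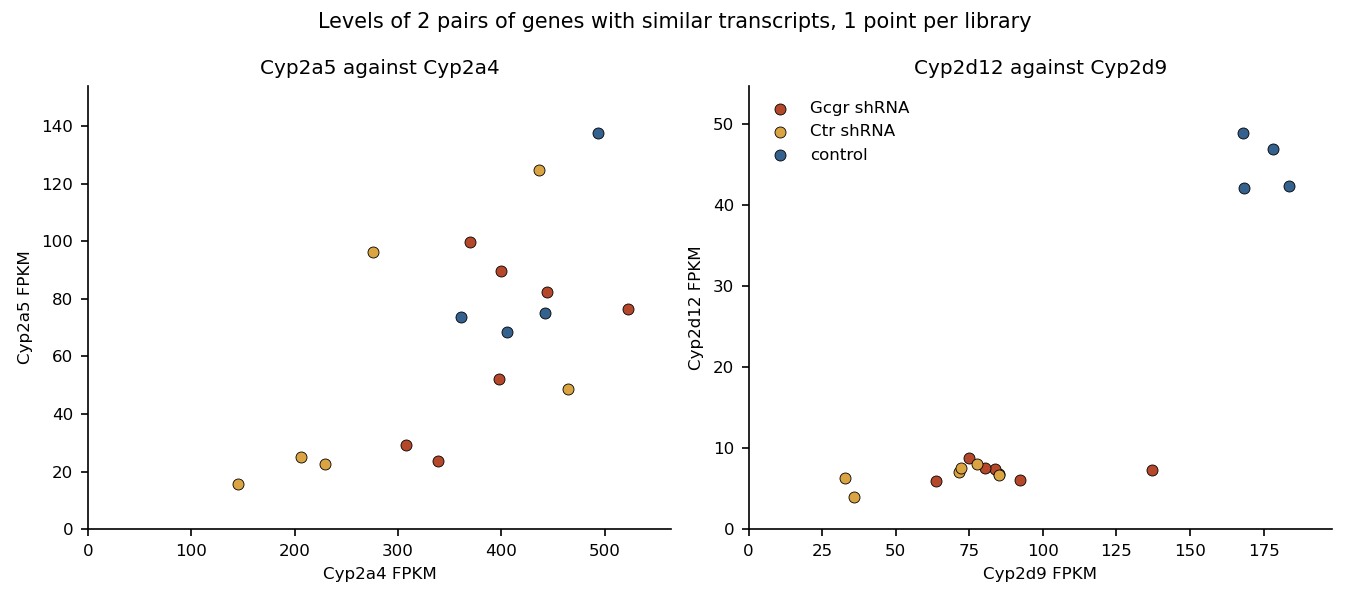
Left, Cyp2a5 against Cyp2a4, and right, Cyp2d12 against Cyp2d9, both in FPKM on linear axes, 1 point per library, coloured by group (Gcgr shRNA, Ctr shRNA, control). Cyp2a5 varies from 15.6 to 137 FPKM with the 3 groups intermixed, while the 4 control libraries stand alone at the upper right for the Cyp2d pair.

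Genes that work with the P450s were read from lists. Of 19 redox partners and haem enzymes 0 passed limma's test in any of the comparisons. In Ctr shRNA against control 5 had an unadjusted p under 0.05, as did 3103 of all 13279 tested genes. Between the shRNA groups 0 did, against 972 of all tested genes. In the libraries labelled Gcgr shRNA against control 1 did, against 2151 of all tested genes. Por was at 107 ± 14.7 FPKM in the libraries labelled Gcgr shRNA and 124 ± 6.20 in control (-0.21 ± 0.10, adjusted p = 0.326). Cyb5b, a cytochrome that can pass electrons to P450s, was at 97.0 ± 5.35 FPKM in the libraries labelled Gcgr shRNA and 114 ± 6.92 in control (-0.24 ± 0.07, adjusted p = 0.110). Ppox, of haem synthesis, was at 7.85 ± 0.418 FPKM in Ctr shRNA and 9.24 ± 0.779 in control (-0.21 ± 0.07, adjusted p = 0.0599). Between the shRNA groups Ppox gave 0.10 ± 0.06 and Uros, also of haem synthesis, -0.10 ± 0.06. Of the epoxide hydrolases 2 of 4 were tested. Ephx1, the microsomal enzyme, rose to 55.2 ± 11.1 FPKM under the Gcgr shRNA label (1.61 ± 0.13, adjusted p = 1.34e-06) and to 70.9 ± 10.6 FPKM in Ctr shRNA (1.97 ± 0.14, adjusted p = 1.73e-07), against 17.2 ± 1.64 FPKM in control. Between the shRNA groups Ephx1 differed by -0.36 ± 0.12, which did not pass (adjusted p = 0.453). Ephx2, which opens epoxides of fatty acids, was at 193 ± 24.4 FPKM in the libraries labelled Gcgr shRNA and 199.99 ± 38.1 in Ctr shRNA (-0.04 ± 0.11, adjusted p = 0.964).

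Of 23 tested transcription factors and receptors known to act on Cyp2 genes, 2 rose and 2 fell in Ctr shRNA against control, where 3.58% of all tested genes rose and 3.91% fell. Nfe2l2, the regulator of antioxidant genes, rose to 32.8 ± 4.98 FPKM, against 20.2 ± 1.94 in control (0.67 ± 0.12, adjusted p = 0.00369), and Cebpa rose to 39.9 ± 10.2 FPKM, against 23.1 ± 1.57 in control (0.73 ± 0.17, adjusted p = 0.0152). Stat5a and Stat5b, which carry growth hormone signals and act on sex-dependent P450 genes of the liver, fell by 0.38 and 0.30 on the log2 scale (adjusted p = 0.00946 and 0.0113). Between the libraries labelled Gcgr shRNA and Ctr shRNA 0 of 23 passed, with 2 at an unadjusted p under 0.05, against 972 of all 13279 tested genes. In the libraries labelled Gcgr shRNA against control Nfe2l2 alone passed (0.48 ± 0.12, adjusted p = 0.0468), where 2.02% of all tested genes did. That call was lost in 16 of 26 alternatives. The calls for Stat5b and Cebpa ended without control 39 (adjusted p = 0.0579 and 0.0607), and that for Stat5b with the same FPKM total (0.0730).

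Since several Cyp2 genes differ between male and female mice, lists of sex-dependent kidney genes were set beside them. In every library the Y-linked genes were expressed, with Ddx3y at 8.09 FPKM or more, Eif2s3y at 7.15, Uty at 1.95 and Kdm5d at 1.13 or more. Xist was at most 0.0161 FPKM in every library. Of the 4 Y-linked genes 0 passed in any comparison, with 0 at an unadjusted p under 0.05. In Ctr shRNA against control 3.91% of all tested genes fell and 3.58% rose. Of 9 genes higher in male kidney 5 fell and 0 rose in that comparison, with a median of -0.69 and 9 of 9 below 0. They included the glucocorticoid-activating Hsd11b1 (-0.91 ± 0.19, adjusted p = 0.00711), the amino acid transporter Slc7a13 (-1.16 ± 0.28, adjusted p = 0.0193), Acsm3 (-0.75 ± 0.20, adjusted p = 0.0316) and Cyp4b1 (-0.69 ± 0.19, adjusted p = 0.0336). Of the 26 alternatives, 2 lost the call for Slc7a13, 8 that for Acsm3, 9 that for Cyp4b1 and 0 that for Hsd11b1. Against control 1 of 9, Hsd11b1, fell in the libraries labelled Gcgr shRNA (-0.99 ± 0.18, adjusted p = 0.00710), where 0.595% of all tested genes fell and 1.42% rose. Between the shRNA groups 0 of 9 passed. Of 3 tested genes higher in female kidney, Cyp4a14 rose in both shRNA groups against control, by 1.90 ± 0.45 under the Gcgr shRNA label (adjusted p = 0.0357, lost in 8 of 26 alternatives) and by 2.96 ± 0.47 in Ctr shRNA (adjusted p = 0.00114). Prlr, the prolactin receptor, rose in the libraries labelled Gcgr shRNA (0.95 ± 0.15, adjusted p = 0.00244).

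Markers of several kidney cell types also moved. Of all tested genes 3.91% fell and 3.58% rose in Ctr shRNA against control, and 0.595% and 1.42% under the Gcgr shRNA label against control. Of 4 podocyte and 4 endothelial markers 0 passed in any comparison, with 0 at an unadjusted p under 0.05. Of 17 proximal tubule markers 6 fell and 0 rose in Ctr shRNA against control, with a median of -0.36. For the Gcgr shRNA label 1 fell, with a median of -0.31. Their summed level was 9434 to 13058 FPKM in the libraries labelled Gcgr shRNA, 8227 to 12845 in Ctr shRNA and 11582 to 13146 in control, so all groups overlapped. Of markers of other tubule segments, 3 of 4 of the thick ascending limb, 3 of 4 of principal cells, 3 of 3 of intercalated cells and 1 of 3 of the distal convoluted tubule fell in Ctr shRNA against control. For the Gcgr shRNA label against control 0 of 4, 2 of 4, 1 of 3 and 0 of 3 of the same lists fell, and none of them rose in either comparison. Of 5 macrophage markers, Lyz2 (1.30 ± 0.23, adjusted p = 0.00255) and Cd68 (0.64 ± 0.17, adjusted p = 0.0268) rose and Csf1r fell (-0.95 ± 0.15, adjusted p = 0.00103) in Ctr shRNA against control, and Lyz2 alone rose under the Gcgr shRNA label (1.32 ± 0.22, adjusted p = 0.00395). Their sum was 65.2 to 101 FPKM in the libraries labelled Gcgr shRNA, 46.7 to 109 in Ctr shRNA and 44.2 to 59.5 in control. The 5 tubular injury markers had a median difference from control of 1.04 under the Gcgr shRNA label and 1.29 in Ctr shRNA, and 2 of 5 rose in each. Their sum was 8.52 to 48.5 FPKM in the libraries labelled Gcgr shRNA, 8.82 to 78.5 in Ctr shRNA, the highest in library 20, and 2.72 to 11.4 in control. In Ctr shRNA, Cyp2d12 was 0.146 times, Cyp2d9 0.358 times, Cyp2d26 0.962 times and Cyp2d22 1.66 times the control mean. The part of the marker shifts in the Cyp2 differences was not tested.

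The 44 other P450 genes gave 19 that could be tested. Of these 3 rose and 2 fell in Ctr shRNA against control, with a median of 0.12, where 3.58% of all tested genes rose and 3.91% fell. Between the shRNA groups 0 passed, with 4 at an unadjusted p under 0.05, against 972 of all 13279 tested genes. In the libraries labelled Gcgr shRNA against control 2 rose, Cyp4a14 and Cyp4f18 (0.69 ± 0.17, adjusted p = 0.0431), where 1.42% of all tested genes rose. Ctr shRNA differed from control in Cyp24a1, which breaks down active vitamin D (-2.08 ± 0.38, adjusted p = 0.00345, with control libraries at 52.1 ± 45.0 FPKM), Cyp4a14, Cyp4f16 (0.40 ± 0.10, adjusted p = 0.0255) and Cyp4b1, named by the smallest p. Of 25 alternatives 7 lost the call for Cyp4f16 and 13 that for Cyp4f18. Whether the Cyp2 genes differ from these was not tested.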

How the data were processed

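Per the labels' protocols, mouse kidney RNA was prepared with Trizol and its libraries by SMARTer mRNA-Seq. What the authors deposited is 1 table of FPKM values per gene and library with gene lengths, per the file headers. GRCm38 and mm10 are named per the submitters' processing notes, while the sources used here name no aligner or counter and do not state the use of strand. The table held 42794 complete lines, and 1 incomplete line was left out. FPKM times length gave whole reads for 100% of low values (up to 200 steps, tolerance 0.05 of a step), and these reads set the depths given. Values were transformed to log2(FPKM + 1), and genes with at least 1 FPKM in at least 4 libraries (13279) were tested with limma-trend (limma 3.58.1, R 4.3.3), with 1 mean per group, all 3 groups sharing the estimate of spread, and Benjamini-Hochberg adjustment at 0.05. The fit was tested on simulated data. Alternatives changed the pseudocount, filter, scaling or variance model, used limma voom on the recovered reads, fitted only the compared groups or left out each library. Every member is accounted for. Of each list that is no marker list, up to 4 genes passing with the smallest p are named, or up to 2 where none passes, with Gcgr as the target. The members and lists were chosen with earlier results of these data known. Transcripts come from GENCODE M21, where 43 of 44 members had the coordinates of the deposited table, and promoters from RefSeq (GRCm38.p6).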

Additional observations from a re-analysis of the deposited data

Results flagged for a closer look

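In 5 of 57 groups of libraries (the 18 expressed members and Gcgr, 3 groups each) 1 library stood apart from the others by Dixon's criterion at 95%, which chance alone gives in about 1 of 20 groups. Cyp2d9 was at 137 FPKM in the library labelled Gcgr shRNA 32, with the other 6 of its group at 63.8 to 92.2 FPKM. Cyp2a5 was at 137 FPKM in control 37, with the other control libraries at 68.4 to 75.1 FPKM. In the same library Cyp2j7 was at 1.68 FPKM, with the others at 1.23 to 1.27 FPKM. Cyp2u1 was at 1.83 FPKM in Ctr shRNA 19, with the other 5 at 1.21 to 1.43 FPKM. Cyp2b10 was at 2.61 FPKM in the library labelled Gcgr shRNA 31, with the other 6 at 0.884 to 1.38 FPKM.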

How the results depend on the processing

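No paired analysis was possible because the groups share no replicate number. Of 1386 recomputed differences of members over up to 26 alternatives (25 for members with a mean under 5 FPKM, which 1 filter leaves out), 1342 kept their direction and their side of the threshold, 16 lost a call, 10 gained one and 18 changed sign. In Ctr shRNA against control the count of higher members was 0 in place of 1 with no low-value filter or with the same FPKM total, and 0 to 1 over fits that leave out 1 library (0 without control 38 or 39). Its count of lower members, 4, was 5 with sample weights and with only the compared groups fitted, and 3 (without control 38) to 5 (without Ctr shRNA 19) over fits that leave out 1 library. In Gcgr shRNA against control the count of lower members was 1 in place of 2 with no low-value filter, 3 with the same FPKM total, sample weights, limma voom or only the compared groups fitted, and 1 to 3 over fits that leave out 1 library. The values that changed sign lay between -0.045 and 0.0559, and none passed. For fits without 1 library the ranges in Ctr shRNA against control were -0.1741 to 0.0253 for Cyp2d26 (highest without Ctr shRNA 6), -0.0006 to 0.158 for Cyp2c23 (lowest without Ctr shRNA 19) and -0.0297 to 0.1443 for Cyp2f2 (lowest without control 37). Between the shRNA groups they were -0.045 to 0.1179 for Cyp2j5 (lowest without Ctr shRNA 20), -0.0031 to 0.1657 for Cyp2d12 (lowest without Ctr shRNA 6), -0.1027 to 0.0559 for Cyp2c23 (highest without Ctr shRNA 19), -0.0145 to 0.067 for Cyp2u1 (lowest without Gcgr shRNA 35) and -0.1325 to 0.0281 for Ephx2 (highest without Ctr shRNA 4). In Gcgr shRNA against control the range for Cyp2f2 was -0.1495 to 0.0187 (highest without control 38). Between the shRNA groups Cyp2j5 and Cyp2u1 were also at -0.0052 and -0.0014 with the same FPKM total, and at -0.0323 and -0.0196 without both Ctr shRNA 20 and Gcgr shRNA 31. The cause was not tested. The number of expressed members was 18 also with a mean of 1 FPKM in at least 1 group. Depth limits the members near 1 FPKM most: Cyp2b10 rests on 119 to 318 reads per group and Cyp2j7 on 125 to 215.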
